A study of Mus musculus with 6 samples.

Results

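Mitochondrial fatty acid oxidation and ketogenesis is described here through 30 genes, named one by one and found by gene name among the 54532 genes of a count table of mouse liver. They cover the activation of fatty acids, their entry into mitochondria by the carnitine shuttle, the cycles of beta-oxidation, the transfer of electrons to the respiratory chain, ketone body enzymes, and 2 genes of fuel choice and uncoupling. The 6 libraries hold bulk liver RNA of male littermates that were fed a high-fat diet, 3 labelled Trem2 KO (Trem2-/-, replicates 4, 5 and 6) and 3 labelled WT, or control, for wild type (replicates 1, 2 and 3). Both groups started the diet at 8 weeks of age and ate it for 8 weeks, and no library of mice on another diet was analysed here. The sources used here do not say how the Trem2 allele was made. The question is how the lack of Trem2, a lipid-sensing receptor of macrophages, goes with gene expression in the fatty liver.

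Fatty acids that enter a hepatocyte are first joined to coenzyme A by acyl-CoA synthetases. Long chains then cross into mitochondria as carnitine esters, a step that Cpt1a controls, and are shortened by repeated cycles of dehydrogenation, hydration, dehydrogenation and thiolysis. In the fasting or fat-fed liver much of the acetyl-CoA that results is turned into ketone bodies, and many genes of the pathway are known targets of the nuclear receptor PPAR alpha.

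Library totals lay between 11591021 and 20399361 counts. The libraries differed in ways that the labels do not explain. Mitochondrially encoded genes took 28.0%, 9.08% and 19.8% of counts in KO-labelled replicates 4, 5 and 6, and 8.16%, 12.7% and 10.2% in WT-labelled replicates 1, 2 and 3. KO-labelled replicate 5 also carried striated muscle RNA, with 593 counts of the skeletal actin Acta1 against 0 to 3 in the other libraries. The muscle markers Ckm, Myh4, Myh1, Tnnt3, Myl1 and Ckmt2 had 85 to 267 counts there and 0 to 2 elsewhere, and Myh6 had 0 to 3 throughout. Tnnt2 was not confined to it, with 120, 352 and 5 counts in KO-labelled replicates 4, 5 and 6 and 4, 59 and 21 in WT-labelled replicates 1, 2 and 3. KO-labelled replicate 5 carried adipocyte RNA too, with 125 counts of the adipokine Adipoq and 122 of the lipid droplet coat Plin1, against 0 to 2 and 0 to 5 in the others. Trem2 had 9, 6 and 5 counts in the KO-labelled libraries and 7, 26 and 26 in the WT-labelled ones. WT-labelled replicate 1 thus lay among the KO-labelled libraries, Trem2 does not separate the labels, and every direction below is between libraries as labelled. The hepatocyte markers Alb, Ttr and Apoa1 were abundant in all 6 libraries.

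Values are CPM, read counts brought to a common library size after TMM scaling, or RPKM, the same per kilobase of gene length. A log2 change has KO-labelled libraries over WT-labelled ones and was fitted with edgeR's quasi-likelihood test over all 13693 genes that passed a filter on low counts. Of the 30 members 29 passed the filter. The exception was Cpt1b.

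None of the 29 tested members passed an adjusted p of 0.05 in edgeR, where 0.0146% of all tested genes did. At an unadjusted p under 0.05 there were 2 members, Ucp2 on the higher and Acsl4 on the lower side, where 5.37% of all tested genes lay on the higher and 3.21% on the lower side. Together they are 6.90% of the tested members, below the 8.58% of all tested genes. DESeq2 called the same 2 members, where it called 0.69% of all genes, and limma-voom called 0, where it called 0.0073%. With sample quality weights limma-voom called 11, where it called 29.7% of all genes. Those weights were 5.53 for WT-labelled replicate 3 and 2.82 for KO-labelled replicate 6, against 0.303 to 0.989 for the other libraries. In that fit 1 library of each label thus carried most of the weight. By direction, 11 members were fitted higher and 18 lower, with a median log2 change of −0.12 against −0.01 over all tested genes. This split turned in other fits: 21 were higher and 8 lower with the mitochondrial share as a covariate, 20 higher and 9 lower with 1 surrogate variable, and 17 higher and 12 lower without WT-labelled replicate 1, where the median was 0.19. For 13 of the 29 the 95% interval of the change lay within 2-fold either way, and for the rest these data leave room for larger differences. Leaving out any 1 library also left 0 members past the adjusted threshold. Without KO-labelled replicate 5 the members under an unadjusted p of 0.05 numbered 9, where 19.1% of all genes passed. Without WT-labelled replicate 2 they numbered 5, where 14.2% of all genes passed.

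**Figure D1:**
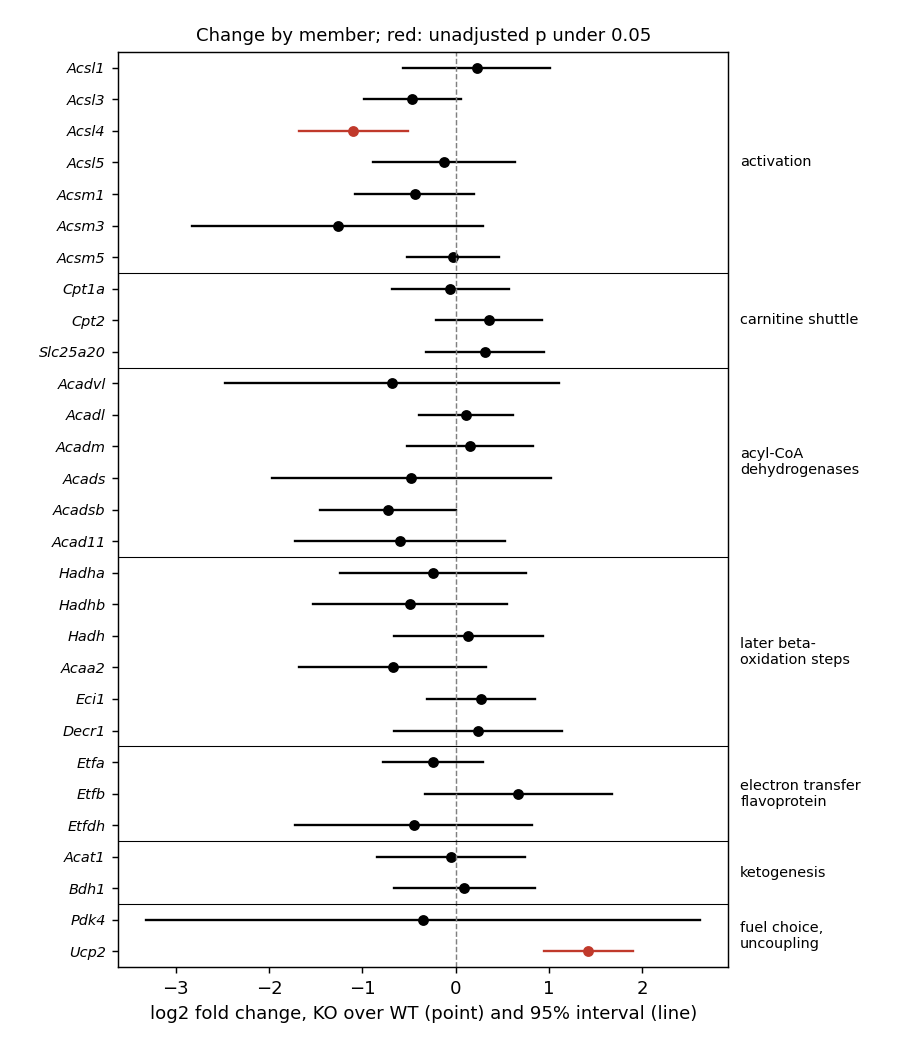
Log2 fold change of KO-labelled over WT-labelled livers for the 29 tested members, ordered by step (points), with 95% intervals from the edgeR fit (lines). Only Ucp2 (1.42) and Acsl4 (−1.10), drawn in red, have an unadjusted p under 0.05, and neither passes the adjustment over all genes.

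The bases just before the start of a few members are shown. They are those of Ucp2 and Acsl4, the 2 members at an unadjusted p under 0.05, and of Pdk4, which varies most between libraries. The short stretch between Hadha and Hadhb, which are read in opposite directions from it, is shown too. No expression value was compared with these bases. Sequences are RefSeq promoter windows of build GRCm38.p6, the assembly that mm10 also names, limited to bases outside each gene's interval in the count table and written 5′ to 3′ on the strand given. Capitals mark GC boxes (GGGCGG) and CCAAT boxes, each in either orientation.
Ucp2 (chr7:100493108-100493336, plus strand): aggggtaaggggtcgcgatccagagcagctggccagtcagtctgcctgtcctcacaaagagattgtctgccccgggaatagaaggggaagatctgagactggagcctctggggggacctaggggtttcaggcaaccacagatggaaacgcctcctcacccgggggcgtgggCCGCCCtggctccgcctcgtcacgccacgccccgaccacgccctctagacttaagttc
Acsl4 (chrX:142390536-142390785, minus strand): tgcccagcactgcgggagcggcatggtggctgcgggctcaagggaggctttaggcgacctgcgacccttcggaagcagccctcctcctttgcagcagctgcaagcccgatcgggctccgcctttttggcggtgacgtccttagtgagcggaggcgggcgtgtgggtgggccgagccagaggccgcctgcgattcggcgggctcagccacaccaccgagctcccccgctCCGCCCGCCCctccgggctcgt
Pdk4 (chr6:5496310-5496528, minus strand): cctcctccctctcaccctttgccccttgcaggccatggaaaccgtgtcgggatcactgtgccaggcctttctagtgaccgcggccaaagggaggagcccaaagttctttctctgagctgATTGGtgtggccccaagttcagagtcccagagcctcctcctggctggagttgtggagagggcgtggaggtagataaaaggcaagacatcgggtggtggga
Hadha-Hadhb (chr5:30155163-30155247, plus strand): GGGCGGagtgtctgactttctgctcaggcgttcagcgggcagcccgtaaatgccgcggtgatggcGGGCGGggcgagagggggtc
RefSeq windows were found for 26 members, in 28 promoters. Over the 250 bases before the start, the GC box was in 15 of 28 member promoters (53.6%) and in 32.7% of all 32851 promoters, and the CCAAT box in 13 of 28 (46.4%) and in 33.8%. The nuclear receptor half-site AGGTCA was in 4 of 28 (14.3%) and in 14.0% of all. The direct repeat of that half-site with 1 base between, the element TNAAGGTCA, which also holds the half-site, and the TATA box TATAAA were in 0 of 28, against 0.0335%, 1.14% and 12.4% of all promoters. All motifs were searched on both strands. Median GC content over these bases was 58.8% in member promoters and 52.4% in all. A match describes letters only.

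Of the 7 activation enzymes 6 were fitted lower and 1 higher, none of them past the adjusted threshold, and their median was −0.44 on the log2 scale. Acsl4 lay lower in every KO-labelled liver. This long-chain acyl-CoA synthetase prefers arachidonic acid and other polyunsaturated chains. Acsl4 (ENSMUSG00000031278, mm10 chromosome X, 142317993 to 142390535) stood at 16.6, 23.3 and 17.3 CPM in KO-labelled replicates 4, 5 and 6, against 40.1, 31.2 and 51.4 CPM in WT-labelled replicates 1, 2 and 3. The groups did not overlap. Its log2 fold change was −1.10 (SE 0.25, edgeR adjusted p = 0.378, unadjusted p = 0.00260), and a two-sided exact permutation test gave p = 0.1, the smallest that 3 against 3 libraries allow. With DESeq2 it passed over all genes, at an adjusted p of 0.0276. Without KO-labelled replicate 5 the log2 change was −1.27, and without WT-labelled replicate 1 it was −1.11.

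Acsl3, the relative found on the endoplasmic reticulum and on lipid droplets, also had groups that did not overlap. It stood at 16.3, 13.8 and 12.5 CPM in the KO-labelled libraries and at 16.6, 18.7 and 23.6 CPM in the WT-labelled ones (log2 −0.46, SE 0.22, edgeR adjusted p = 0.619). KO-labelled replicate 4 and WT-labelled replicate 1 nearly touch. With Ucp2, Acsl3 and Acsl4 make 3 of 29 members (10.3%) whose groups did not overlap, fewer in proportion than the 13.9% of all tested genes (8.12% higher and 5.73% lower). That count was 7 without KO-labelled replicate 5, 8 without WT-labelled replicate 2 and 6 without WT-labelled replicate 1, where 40.2%, 34.4% and 21.2% of all genes did not overlap. Acsl3 overlaps Utp14b on the same strand, whose counts came to 19.3% of those of Acsl3.

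Acsl1 and Acsl5, the more abundant family members in these livers, showed no such separation. Acsl1, the main synthetase of hepatocytes, stood at 1068, 932 and 1710 CPM in KO-labelled livers and at 1398, 1016 and 764 CPM in WT-labelled livers (log2 0.22, 95% interval −0.56 to 1.01). Per length, it made up 70.7 ± 10.3% of the summed RPKM of the 4 Acsl genes in KO-labelled livers and 64.1 ± 11.7% in WT-labelled livers (SD, n = 3 each; exact permutation p = 0.5). The share of Acsl4 was 2.22 ± 0.656% in KO-labelled and 4.93 ± 1.47% in WT-labelled livers (SD, n = 3 each), without overlap (exact permutation p = 0.1, the smallest possible). Acsl5, found on mitochondria and the endoplasmic reticulum, had a log2 change of −0.12. It overlaps Zdhhc6 on the other strand, whose counts came to 28.3% of those of Acsl5, and the sources used here do not say whether counting used strand.

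The Acsm genes encode medium-chain acyl-CoA synthetases of the mitochondrial matrix and lie together on chromosome 7. Acsm3 had the most negative change of all members, but its libraries spread widely. It stood at 6.36, 25.5 and 10.2 CPM in KO-labelled livers and at 63.0, 11.9 and 26.7 CPM in WT-labelled livers (log2 −1.26, SE 0.67, edgeR adjusted p = 0.638). KO-labelled replicate 5 and WT-labelled replicate 3 were nearly equal. Acsm3 overlaps Eri2 on the other strand, whose counts came to 16.9% of those of Acsm3. Acsm1 stood at 191, 301 and 264 CPM in KO-labelled livers and at 413, 257 and 355 CPM in WT-labelled livers (log2 −0.44, edgeR adjusted p = 0.666). By the gene length in the count table it had the highest mean RPKM of the synthetases among the members, 136 against 110 for Acsl1. In KO-labelled livers alone Acsl1 was slightly higher, at 118 against 116 RPKM. The table gives Acsl1 10483 bases, while its longest transcript has 5676, so this rank is not firm. Acsm5 was even throughout, between 89.8 and 122 CPM (log2 −0.03, 95% interval −0.52 to 0.47).

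Of the 3 tested genes of the carnitine shuttle 2 were fitted higher and 1 lower, and none passed the test. Cpt1a, the liver form of carnitine palmitoyltransferase 1 and the controlled entry step, stood at 247, 394 and 284 CPM in KO-labelled livers and at 388, 255 and 320 CPM in WT-labelled livers. The groups overlapped throughout, and the log2 change was −0.06 (SE 0.27, edgeR adjusted p = 0.951), with a 95% interval from −0.68 to 0.57. Cpt2, which takes carnitine off again inside mitochondria, stood at 192, 188 and 272 CPM in KO-labelled livers and at 195, 142 and 173 CPM in WT-labelled livers (log2 0.35, SE 0.24, edgeR adjusted p = 0.676). Slc25a20, the carrier that swaps acylcarnitine for carnitine, averaged 179 ± 41.2 CPM in KO-labelled and 144 ± 35.9 CPM in WT-labelled livers (SD, n = 3 each; log2 0.32, edgeR adjusted p = 0.718).

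Cpt1b, the muscle form of carnitine palmitoyltransferase 1, was at the edge of detection. It had 0, 1 and 2 counts in the KO-labelled libraries and 0, 3 and 2 in the WT-labelled ones, and per length it was at most 0.0961% of Cpt1a and Cpt1b together in any library. A count of 0 allows up to 0.272 CPM in KO-labelled replicate 4 and up to 0.187 CPM in WT-labelled replicate 1, taking 3 counts as the limit. These limits cover counting error only. In KO-labelled replicate 5, which held the muscle RNA, Cpt1b had 1 count.

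The acyl-CoA dehydrogenases open each cycle of beta-oxidation and differ in the chain length they take. Of the 6 members 2 were fitted higher and 4 lower, and none passed the test. In each of the 6 the libraries of at least 1 label spread over a wider range than the group means lay apart. By fold from lowest to highest library, this spread was widest in Acadvl and Acads. Acadvl, for very long chains, stood at 21.5, 102 and 31.3 CPM in KO-labelled livers and at 160, 21.6 and 68.9 CPM in WT-labelled livers (log2 −0.69, SE 0.77, edgeR adjusted p = 0.770). Its highest over its lowest library was 4.75-fold within the KO-labelled group and 7.40-fold within the WT-labelled group. Acads, for short chains, stood at 35.2, 177 and 63.5 CPM in KO-labelled livers and at 198, 53.3 and 132 CPM in WT-labelled livers (log2 −0.47, SE 0.65, edgeR adjusted p = 0.812). In both genes KO-labelled replicate 5 and WT-labelled replicate 1 were high, and KO-labelled replicate 4 and WT-labelled replicate 2 low.

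Acadl and Acadm, for long and medium chains, were far steadier. Acadl stood at 246, 210 and 273 CPM in KO-labelled livers and at 258, 206 and 210 CPM in WT-labelled livers (log2 0.11, 95% interval −0.39 to 0.62). By the gene length in the count table it had the highest mean RPKM of these dehydrogenases, 117 against 83.8 for Acadm, with overlapping libraries. That length is 3913 bases for Acadm, whose longest transcript has 2047, and 2005 for Acadl, whose longest has 1916. The rank of the 2 is therefore not firm. Acadm averaged 346 ± 87.2 CPM in KO-labelled and 310 ± 82.4 CPM in WT-labelled livers (SD, n = 3 each; log2 0.16, 95% interval −0.52 to 0.83). Acadsb, which acts on short branched chains from isoleucine, stood at 50.5, 90.4 and 78.0 CPM in KO-labelled livers and at 150, 80.2 and 132 CPM in WT-labelled livers. One pair of libraries, KO-labelled replicate 5 and WT-labelled replicate 2, kept the groups from lying apart (log2 −0.72, SE 0.31, unadjusted p = 0.0514, edgeR adjusted p = 0.586). Acad11, a further member of the dehydrogenase family, had a log2 change of −0.60 (SE 0.48, edgeR adjusted p = 0.704). Acadsb overlaps Fgfr2 on the other strand, whose counts came to 16.9% of its own.

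**Figure D2:**
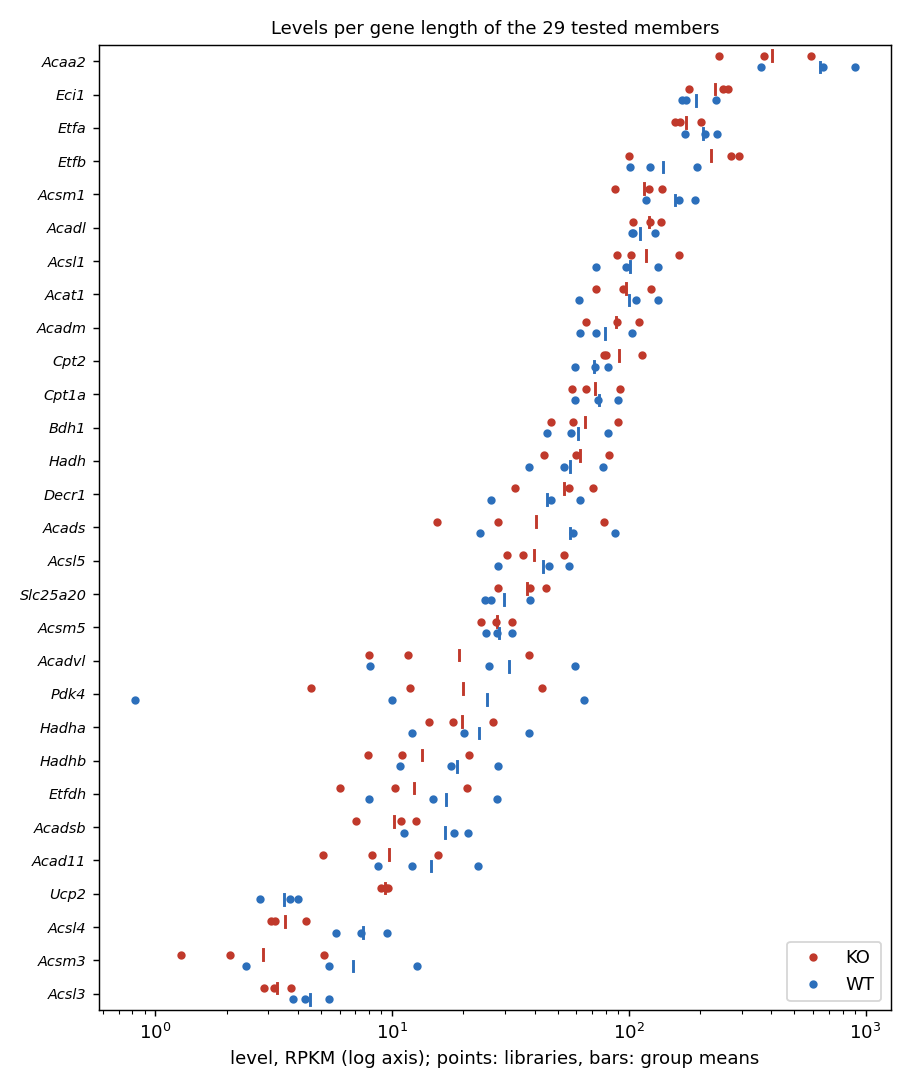
RPKM of the 29 tested members in each library on a log axis, with KO-labelled livers in red above WT-labelled livers in blue and group means as bars, ordered by the mean over 6 libraries. Acaa2 is at the top with a mean of 521 RPKM and Acsl3 at the bottom with 3.89, and the libraries of Pdk4, Acadvl, Acads and Acsm3 spread more widely than those of Acadl, Etfa or Ucp2.

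Per length, Acaa2 had the highest level of all members, with a mean of 521 RPKM over 6 libraries, followed by Eci1 (211 RPKM), Etfa (190 RPKM) and Etfb (180 RPKM). Cpt1a averaged 73.2 RPKM, Hadha 21.5, Hadhb 16.1, Ucp2 6.41, Acsl4 5.55 and Acsl3 3.89 RPKM. Of the 29 pairs of neighbours in this order, 28 overlapped between libraries, so that the order is firm only over larger steps. The exception was Acsl3 over Cpt1b, which averaged 0.0231 RPKM. Gene length in the count table runs up to 10483 bases for Acsl1, and a gene whose expressed transcript is shorter than that has its RPKM understated.

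Of the 6 members of the later steps of beta-oxidation 3 were fitted higher and 3 lower, and none passed the test. Acaa2, the thiolase that closes the cycle, stood at 363, 895 and 567 CPM in KO-labelled livers and at 1361, 548 and 1001 CPM in WT-labelled livers (log2 −0.67, SE 0.43, edgeR adjusted p = 0.666). Hadha, the alpha subunit of the mitochondrial trifunctional protein, stood at 125, 232 and 159 CPM in KO-labelled livers and at 329, 105 and 176 CPM in WT-labelled livers (log2 −0.24, edgeR adjusted p = 0.856). Hadhb, its beta subunit, whose start lies 85 bases from the end of the Hadha interval, stood at 52.2, 140 and 72.9 CPM in KO-labelled livers and at 184, 70.9 and 117 CPM in WT-labelled livers (log2 −0.49, edgeR adjusted p = 0.730). The 2 subunits kept the same order of libraries within each group. Their RPKM ratio, Hadhb over Hadha, was 0.652 ± 0.127 in KO-labelled and 0.838 ± 0.0847 in WT-labelled livers (SD, n = 3 each, exact permutation p = 0.2). The count table gives Hadha 8730 and Hadhb 6595 bases, while their longest transcripts have 4017 and 4388. The height of the ratio is therefore not firm.

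Hadh, the dehydrogenase for shorter 3-hydroxyacyl chains, averaged 308 ± 96.8 CPM in KO-labelled and 280.5 ± 100.4 CPM in WT-labelled livers (SD, n = 3 each; log2 0.14, edgeR adjusted p = 0.904). Eci1 and Decr1, which prepare the double bonds of unsaturated fatty acids for the cycle, had log2 changes of 0.27 and 0.24 (edgeR adjusted p = 0.732 and 0.839). All 6 genes of these steps had 95% intervals that include no change.

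Electrons from the dehydrogenases pass through the electron transfer flavoprotein, made of the Etfa and Etfb subunits, to ubiquinone by way of Etfdh. Etfb ran against most other members. It stood at 341, 117 and 316 CPM in KO-labelled livers and at 118, 225 and 143 CPM in WT-labelled livers, lowest in KO-labelled replicate 5 and WT-labelled replicate 1 (log2 0.67, SE 0.43, edgeR adjusted p = 0.666). Etfdh had the opposite order, with 45.4, 156 and 77.2 CPM in KO-labelled livers and 209, 60.1 and 112 CPM in WT-labelled livers (log2 −0.45, SE 0.55, edgeR adjusted p = 0.787). Etfa was steadier, with 300.5, 287 and 369 CPM in KO-labelled livers and 433, 316 and 384 CPM in WT-labelled livers (log2 −0.24, edgeR adjusted p = 0.734). The RPKM ratio of Etfb over Etfa was 1.79, 0.642 and 1.35 in KO-labelled replicates 4, 5 and 6 and 0.428, 1.12 and 0.587 in WT-labelled replicates 1, 2 and 3 (exact permutation p = 0.2).

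This order of libraries recurred across the members. In 15 of 29 (51.7%) the order from high to low was replicates 5, 6, 4 among KO-labelled and 1, 3, 2 among WT-labelled livers, against 15.9% of all tested genes. The order was noticed in these data and is given without a test. It held for Acadvl, Acads, Acadsb, Acad11, Hadha, Hadhb, Hadh, Acaa2, Decr1, Etfdh, Acat1, Bdh1, Cpt1a, Acsm1 and Acsm3. Etfb had the exact reverse, as had 1803 of all 13693 tested genes. Among the pathway genes outside the members it held for 11 of 39 (28.2%), and among 12 hepatocyte markers for 6.

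KO-labelled replicate 4 and WT-labelled replicate 2 were the lowest of their groups in 20 of 29 members (69.0%), against 24.3% of all tested genes. These 2 libraries had the largest share of mitochondrially encoded counts of their groups, and KO-labelled replicate 5 and WT-labelled replicate 1 the smallest. The part of that share in the order was not tested apart from a fit with it as a covariate. There the members' median log2 change was 0.28 in place of −0.12, and with 1 surrogate variable it was 0.23, with 0 members past the adjusted threshold in either fit. The members with this order had a median longest transcript of 3405 bases and a median GC content of 51.0%, against 2866 bases and 47.8% in the other 14. Over all tested genes it was the reverse, with 2861 bases and 48.2% in genes with the order, against 3266 bases and 49.8% in those without it. The part of the muscle and adipocyte RNA of KO-labelled replicate 5 in its place in this order was not tested. Spread within groups was wider for the members than for other genes, with a median SD of 0.45 on the log2(CPM + 0.5) scale, against 0.30 for the 5424 tested genes whose mean CPM lies in the range of the members.

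**Figure D3:**
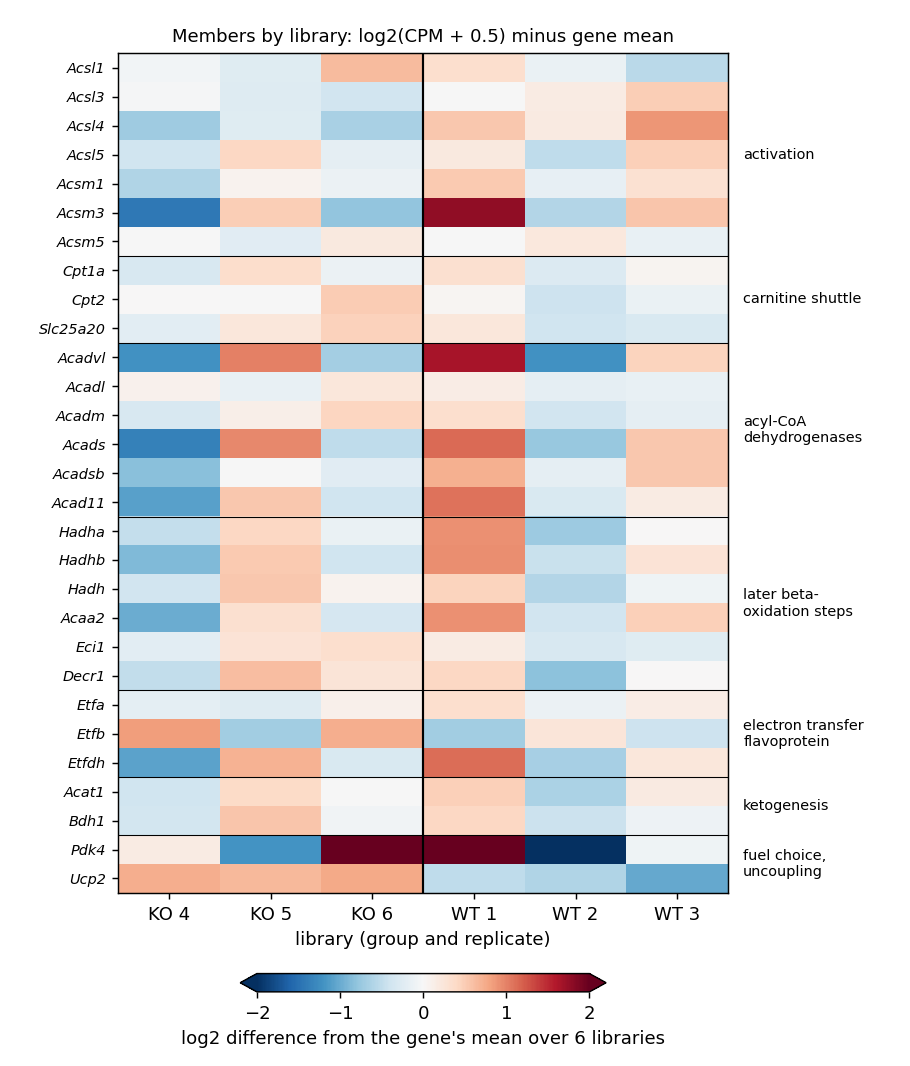
Each tested member (rows, by step) in each library (columns, KO-labelled left of WT-labelled) as log2(CPM + 0.5) minus the gene's mean over 6 libraries, in colours limited to 2 either way, which Pdk4 exceeds. Red bands run through KO-labelled replicate 5 and WT-labelled replicate 1 for most dehydrogenases and later enzymes and blue bands through KO-labelled replicate 4 and WT-labelled replicate 2, while Ucp2 is red in all 3 KO-labelled libraries and blue in all 3 WT-labelled ones.

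The 2 ketone body enzymes among the members had groups that overlapped throughout. Acat1, the mitochondrial thiolase that joins acetyl-CoA units, stood at 272, 468 and 354 CPM in KO-labelled livers and at 498, 231 and 403 CPM in WT-labelled livers (log2 −0.05, 95% interval −0.84 to 0.74). Bdh1, which turns acetoacetate into beta-hydroxybutyrate, stood at 183, 350 and 226 CPM in KO-labelled livers and at 316, 176 and 221 CPM in WT-labelled livers (log2 0.09, 95% interval −0.67 to 0.85). Neither passed the test (edgeR adjusted p = 0.965 for Acat1 and 0.934 for Bdh1).

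Pdk4 varied more between libraries than any other member. The kinase switches off pyruvate dehydrogenase and so spares glucose when fat is burned, and its mRNA is known to follow fasting. It stood at 42.0, 16.02 and 151 CPM in KO-labelled livers and at 228, 2.88 and 35.1 CPM in WT-labelled livers. The highest WT-labelled library was 79.1-fold above the lowest, and the groups overlapped almost fully (log2 −0.35, SE 1.28, 95% interval −3.32 to 2.62, edgeR adjusted p = 0.936). Its direction was the reverse in several alternative fits, and the sources used here do not give the feeding state at harvest.

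Ucp2 had the smallest p of all members and the clearest separation. It encodes a carrier of the inner mitochondrial membrane, named an uncoupling protein, that macrophages express and hepatocytes of fatty livers are also known to express. Ucp2 (ENSMUSG00000033685, mm10 chromosome 7, 100493337 to 100502020) stood at 65.9, 62.5 and 67.4 CPM in KO-labelled replicates 4, 5 and 6, against 27.9, 25.9 and 19.3 CPM in WT-labelled replicates 1, 2 and 3. All 3 KO-labelled libraries lay above all 3 WT-labelled ones, in a narrow band of 1.08-fold from lowest to highest. The difference was 2.68-fold (log2 1.42, SE 0.21, 95% interval 0.94 to 1.90). It did not pass over all genes in edgeR (adjusted p = 0.236, unadjusted p = 0.000147) and did in DESeq2 (adjusted p = 0.000152). The exact permutation test gave p = 0.1, the smallest possible. Without KO-labelled replicate 5 the log2 change was 1.45, and without WT-labelled replicate 1 it was 1.53.

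Marker lists of several other cell types had sums that did not overlap between the groups, and others did. All 11 Kupffer cell and macrophage markers were fitted higher, as were 6730 of all 13693 tested genes. At an unadjusted edgeR p under 0.05 there were 3 of them, where 5.37% of all tested genes lay on the higher side. Their summed level was 176 to 234 CPM in KO-labelled and 104 to 139 CPM in WT-labelled livers. Sinusoidal endothelial markers, 8 of 8 fitted higher and 3 at an unadjusted p under 0.05, summed to 275 to 425 CPM in KO-labelled and 175 to 237 CPM in WT-labelled livers. Those of stellate cells and fibroblasts, 6 of 8 fitted higher, summed to 174 to 429 CPM in KO-labelled and 149 to 172 CPM in WT-labelled livers. KO-labelled replicate 6 and WT-labelled replicate 2 nearly touch in this sum. Of these markers 5 had an unadjusted p under 0.05, Des, Pdgfrb, Col1a1, Col3a1 and Acta2. The log2 changes of Lrat, Reln and Dcn were −0.03, 0.15 and −0.01. White adipocyte markers summed to 132 to 153 CPM in KO-labelled and 19.5 to 99.1 CPM in WT-labelled livers. That sum was carried by Fabp4, Cfd and Plin4, the 3 tested of 7, all fitted higher and 2 at an unadjusted p under 0.05. The other 4, Adipoq, Plin1, Lep and Retn, had 0 to 5 counts in every library except KO-labelled replicate 5. Biliary markers overlapped, at 56.8 to 74.9 CPM in KO-labelled and 39.9 to 78.4 CPM in WT-labelled livers. Of the lymphocyte markers tested 3 of 5 were fitted lower, and of the neutrophil markers 2 of 2. At an unadjusted p under 0.05 there was 1 of these, Cd4, where 3.21% of all tested genes lay on the lower side. None of these markers passed over all genes in edgeR, and the only marker of these lists at 0 counts in all libraries was the neutrophil gene Ly6g. Their part in the values of Ucp2 was not tested, and in bulk tissue fewer (or more) cells of a type and less (or more) RNA per cell cannot be told apart. The hepatocyte markers had 10 of 12 fitted lower, and summed to 79675 to 85624 CPM in KO-labelled and 80412 to 117831 CPM in WT-labelled livers. Most of that sum was Alb, at 50471 to 55593 CPM in KO-labelled and 47854 to 68041 CPM in WT-labelled livers. Of the 12, 2 were lower at an unadjusted p under 0.05, Cps1 (log2 −1.70) and Apoh (log2 −0.72), against 3.21% of all tested genes.

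**Figure D4:**
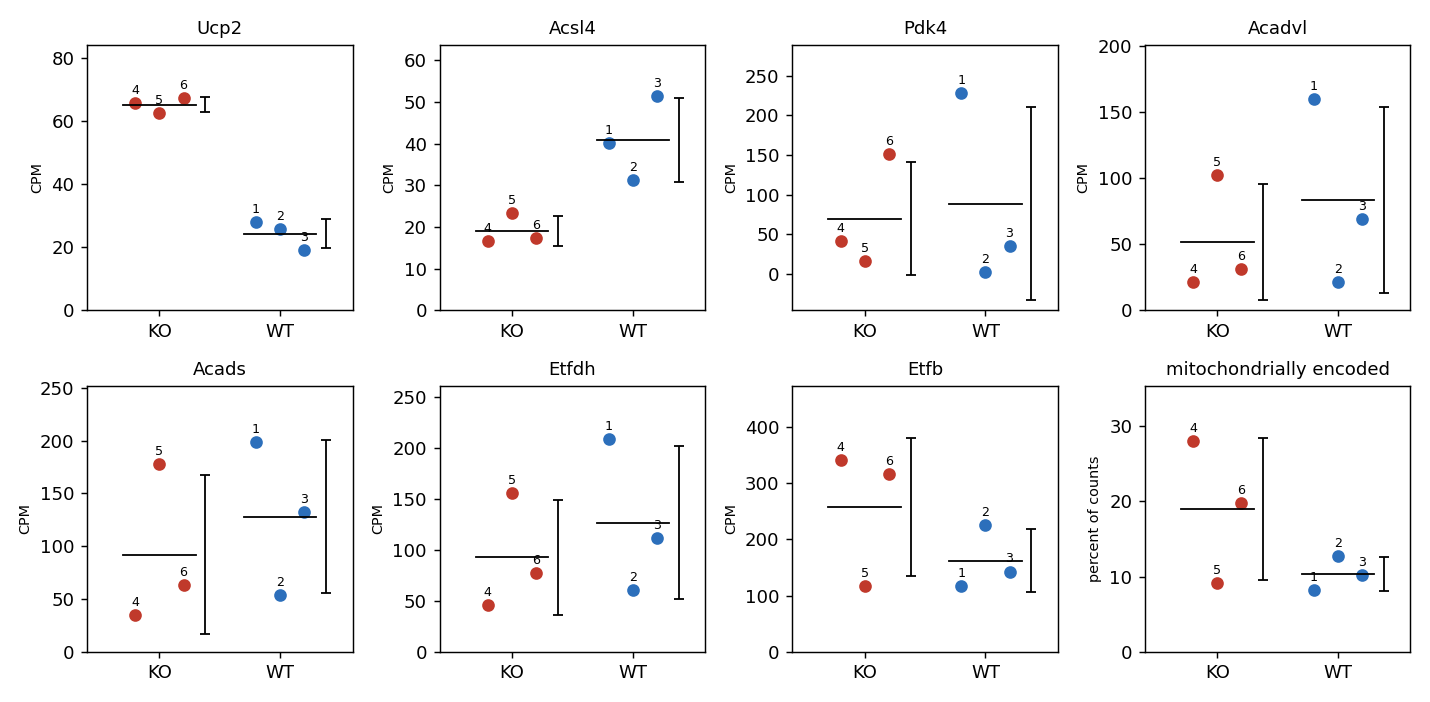
CPM of 7 members and the percentage of mitochondrially encoded counts in each library, KO-labelled left of WT-labelled, with replicate numbers, group means (horizontal lines) and SD (bars, n = 3). Ucp2 and Acsl4 separate the labels, whereas Acadvl, Acads and Etfdh are high in replicates 5 and 1 and Etfb and the mitochondrial share are low there.

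The pathway has other genes, of which 47 were listed beside the members and 39 were tested. None passed an adjusted p of 0.05 in edgeR, and 3 had an unadjusted p under 0.05, 2 of them higher and 1 lower (7.69%, against 8.58% of all tested genes). Crat, which moves acetyl groups onto carnitine, stood at 82.6, 72.3 and 145 CPM in KO-labelled livers and at 24.9, 38.2 and 50.1 CPM in WT-labelled livers (log2 1.40, SE 0.36, edgeR adjusted p = 0.400). Slc16a7, a monocarboxylate transporter that carries ketone bodies and pyruvate, stood at 121, 94.8 and 144 CPM in KO-labelled livers and at 64.0, 86.9 and 67.2 CPM in WT-labelled livers (log2 0.72, SE 0.24, edgeR adjusted p = 0.470). Ivd, the isovaleryl-CoA dehydrogenase of leucine breakdown, stood at 122, 162 and 167 CPM in KO-labelled livers and at 257, 185 and 280 CPM in WT-labelled livers (log2 −0.68, SE 0.25, edgeR adjusted p = 0.521). In all 3 the groups did not overlap, as in 8 of the 39 (20.5%), against 13.9% of all tested genes. Under an unadjusted p of 0.05 there were 8 without KO-labelled replicate 5 and 8 without WT-labelled replicate 2, where 19.1% and 14.2% of all genes passed, and 1 without WT-labelled replicate 3, where 5.2% passed.

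In other steps of the pathway the gene with the smallest p was Slc27a5 for activation (log2 −0.55), Ech1 for later beta-oxidation (0.41), Etfbkmt for the electron transfer flavoprotein (−0.27) and Pdp2 for fuel choice (−0.56), all at unadjusted p above 0.05. Ucp1 had 1 count in all libraries together. Ucp3, which lies beside Ucp2 on chromosome 7, had 4, 6 and 9 counts in KO-labelled and 1, 0 and 0 in WT-labelled libraries, too few to be tested.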

How the data were processed

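Liver RNA of male mice was extracted with Trizol and made into 6 TruSeq libraries, per the labels' protocols. Build mm10, DESeq2 1.16.1, featureCounts 1.5.0-p3 and HISAT2 2.0.5 stand in the submitters' processing notes, without roles or settings. Raw counts of reads come from the table the authors deposited, and the authors' deposited FPKM table, scaled by DESeq2-type size factors (ratio 1 in each library), served as an alternative. From the counts, edgeR 4.0.16 (R 4.3.3) gave TMM-scaled CPM, a filter (filterByExpr), quasi-likelihood tests and Benjamini-Hochberg adjustment over 13693 genes; SE is the log2 change over the square root of F, and intervals use the fit's degrees of freedom. RPKM uses the table's gene length. Alternatives used DESeq2 1.42.0, limma 3.58.1 and sva 3.50.0, other scalings and filters, covariates, and libraries left out. The edgeR test was also run on simulated counts, drawn for each gene on its own. That run does not cover differences between libraries that many genes share.

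Members, lists and several alternatives were chosen with earlier results of these data known. By rule, values in each library were given for members past an unadjusted p of 0.05, those with the smallest p or highest RPKM of a step, and Cpt1a, Cpt1b, Pdk4, Ucp2, Acat1 and Bdh1. Those of Acsl1, Acsl3, Acsm3, Acadvl, Acads, Hadha, Hadhb and Etfdh were chosen after their values were seen. Some genes of the pathway are not reported here. Between replicates, chi-square per degree of freedom was at least 45.6, so that all differed beyond sampling noise. Whether each library is from its own mouse is not stated in the labels, and p-values measure the spread between these samples.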

Additional observations from a re-analysis of the deposited data

How the results depend on the processing

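No paired analysis was possible because the groups share no replicate number. The 20 alternatives left 11 of 29 members with one sign in all, among them Ucp2 (1.18 to 1.72) and Acsl4 (−1.47 to −0.85), and gave the other 18 the other sign at least once. The cause was not tested.

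Genes called over all tested, 2 in edgeR with TMM, numbered 170 with DESeq2, 1 with limma-voom, 4063 with sample quality weights, 1 with library size alone, 61 without a count filter, 10 with 1 surrogate variable, 1 with the mitochondrial share as covariate, and 0 to 1 with libraries left out. Members called, 0 in edgeR, numbered 2 with DESeq2 (Ucp2 and Acsl4), 11 with quality weights and 1 (Ucp2) without a filter. The quality weights lay mostly on WT-labelled replicate 3 and KO-labelled replicate 6. Members at an unadjusted p under 0.05, 2 in edgeR, numbered 4 with DESeq2 (6.11% of all genes), 17 with quality weights (44.4%), 4 without a filter (7.73%), 7 with the surrogate variable (11.9%), 4 with the covariate (6.56%) and 2 to 9 with libraries left out (3.84% to 19.1%). The members' median of −0.12 was 0.28 with the covariate and −0.36 to 0.37 with libraries left out. Members not overlapping numbered 3 to 10 with libraries left out, where 17.8% to 40.2% of all genes did not overlap; the 10 are without WT-labelled replicate 1 and KO-labelled replicate 4 (29.2%). Pathway genes at an unadjusted p under 0.05, 3 in edgeR, numbered 5 with DESeq2, 22 with quality weights, 10 without a filter, 9 with the surrogate variable and 1 to 8 with libraries left out, beside the same shares of all genes.

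With the opposite sign, log2 changes in the fit with 1 surrogate variable were Acad11 0.024, Acads 0.35, Acadvl 0.57, Acat1 0.41, Acsl5 0.23, Cpt1a 0.23, Etfb −0.0053, Etfdh 0.34, Hadha 0.43, Hadhb 0.12 and Pdk4 3.20. With the mitochondrial share they were Acaa2 0.00055, Acad11 0.20, Acads 0.56, Acadvl 0.59, Acat1 0.42, Acsl5 0.28, Cpt1a 0.30, Etfb −0.23, Etfdh 0.47, Hadha 0.41, Hadhb 0.24 and Pdk4 0.19. With upper quartile scaling Acat1 was 0.013, Acsm5 0.020 and Cpt1a 0.0015, and with library size alone Acat1 was 0.012. Sample quality weights gave Acsm5 0.24, Bdh1 −0.017 and Pdk4 1.43, limma-voom gave Pdk4 0.71, and FPKM with pseudocounts of 1 and 0.1 gave Pdk4 0.39 and 0.63.

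With libraries left out the ranges of members that changed sign were −1.14 to 0.19 for Acad11, −0.041 to 0.56 for Acadm, −1.38 to 0.38 for Acads, −1.66 to 0.56 for Acadvl, −0.31 to 0.37 for Acat1, −0.088 to 0.57 for Acsl1, −0.40 to 0.083 for Acsl5, −0.15 to 0.071 for Acsm5, −0.22 to 0.54 for Bdh1, −0.28 to 0.24 for Cpt1a, −0.038 to 0.80 for Decr1, −1.05 to 0.44 for Etfdh, −0.13 to 0.64 for Hadh, −0.56 to 0.48 for Hadha, −0.99 to 0.18 for Hadhb and −1.63 to 2.13 for Pdk4. The share of Acsl4 among the 4 Acsl differed by −2.71 percentage points, and by −3.23 to −1.87 with libraries left out. The deposited FPKM rest on the same counts and lengths, so their share is the same by construction and adds no support. Cpt1b, at 0 to 3 counts, is below what this depth can compare.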
